A study of Mus musculus with 6 samples.

Results

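The genes described here are 32 genes of osteoblast differentiation and bone mineralization, measured by RNA-seq in the maxillary process of mouse embryos at E12.5. They were taken by symbol from a list of named genes, which was drawn up with earlier results of these data known, and each matched a single row among the 53801 genes of the count files. Total RNA came from 3 WT samples and 3 wnt1cre; Rosa26Dlx2/- samples (Dlx2OE). The labels give the strain as C57BL/6, and their protocols give C57BL/6J for both the knock-in background and the wild-type mice. In Dlx2OE embryos, Cre driven by wnt1 removed a stop cassette from a CAG-driven Dlx2-3xFlag copy in Rosa26. The extra copy therefore acts in cells of neural crest lineage and not in the facial epithelium, vessel endothelium or blood. The labels describe the other samples as wild type only, and do not state whether these embryos carried Cre or the unrecombined knock-in. The labels give 7 littermates and the study's methods 6 as the source of the RNA. The levels of Xist and Ddx3y given below show that most libraries held RNA of more than 1 embryo. How embryos were divided among the libraries is not stated. The samples are described as independent RNA samples, and p-values measure the spread between them. This is a spread between separate embryos only if the libraries shared none. If the 6 or 7 littermates supplied all libraries together, some must have been shared, since most libraries held more than 1 embryo. Whether that number applies to each library or to all of them is not stated.

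Bones of the upper jaw form directly within neural crest mesenchyme, without a cartilage template. Runx2, bound to its partner Cbfb, commits mesenchymal cells to the osteoblast lineage, Sp7 acts after it, and Twist1 and Twist2 hold Runx2 back. The cells then lay down a collagen matrix and raise the local phosphate level with alkaline phosphatase, and the latest genes, such as those of osteocalcin, mark cells within mineralizing bone. E12.5 precedes mineralization of the maxilla.

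Gene counts summed to 26155500 to 31308813 read pairs per library. Levels are CPM, read pair counts relative to library size, with TMM scaling. A floor of 3 counts, which covers counting error only, corresponds to 0.0955 to 0.111 CPM depending on the library. Dlx2 itself, which checks the labels, was 42.9, 35.0 and 45.2 CPM in WT samples 1 to 3 and 119, 131 and 123 CPM in Dlx2OE samples 1 to 3 (3.03-fold higher, standard error of the log2 value 0.118, adjusted p = 0.00241, edgeR). Dlx2OE sample 3 stood apart in the share of read pairs that fell outside annotated genes, 15.4% against 5.34 to 8.21% in the other 5 libraries. Xist, which female cells make, and the Y-linked gene Ddx3y were both present in every library. WT sample 2 had 10.2 CPM of Xist where the others had 1070 to 2356 CPM. Ddx3y was at 16.1 to 62.0 CPM in those others, so each of them held RNA of both female and male embryos. The 8 facial mesenchyme markers summed to 1346 to 1637 CPM in WT and 1550 to 1906 CPM in Dlx2OE, with Prrx1 and Pdgfra the largest. Tfap2a rose and none fell at an adjusted p under 0.05. Prrx1 and Tfap2a were higher without overlap. Barx1 was lower without overlap, at 83.5 to 194 CPM in Dlx2OE against 222 to 268 CPM in WT (adjusted p = 0.153, edgeR). Alx1 had 97.2, 23.5 and 19.5 CPM in Dlx2OE samples 1 to 3 and 61.3 to 72.4 CPM in WT, so the markers did not move together.

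The members ranged from 0 counts in every library to 1206 CPM, the level of Postn in WT sample 2. Twist1, Sparc, Postn, Cbfb, Atf4 and Runx2 were the 6 highest members in WT per kilobase of exon, at 133, 120, 107, 66.6, 49.8 and 6.92 CPM per kb. The SDs of the first 3 were 23.3, 10.1 and 27.4 CPM per kb (n = 3), so their order did not exceed the spread between samples. Among the defining osteoblast markers, Runx2, Sp7 and Alpl were present in every library, whereas Ibsp and Bglap had at most 57 and 9 counts in any library. Bglap2 and Mepe had 0 counts in all 6 libraries, and Bglap and Dmp1 had at most 9 and 6 counts, so 4 members were too low to be tested.

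**Figure D1:**
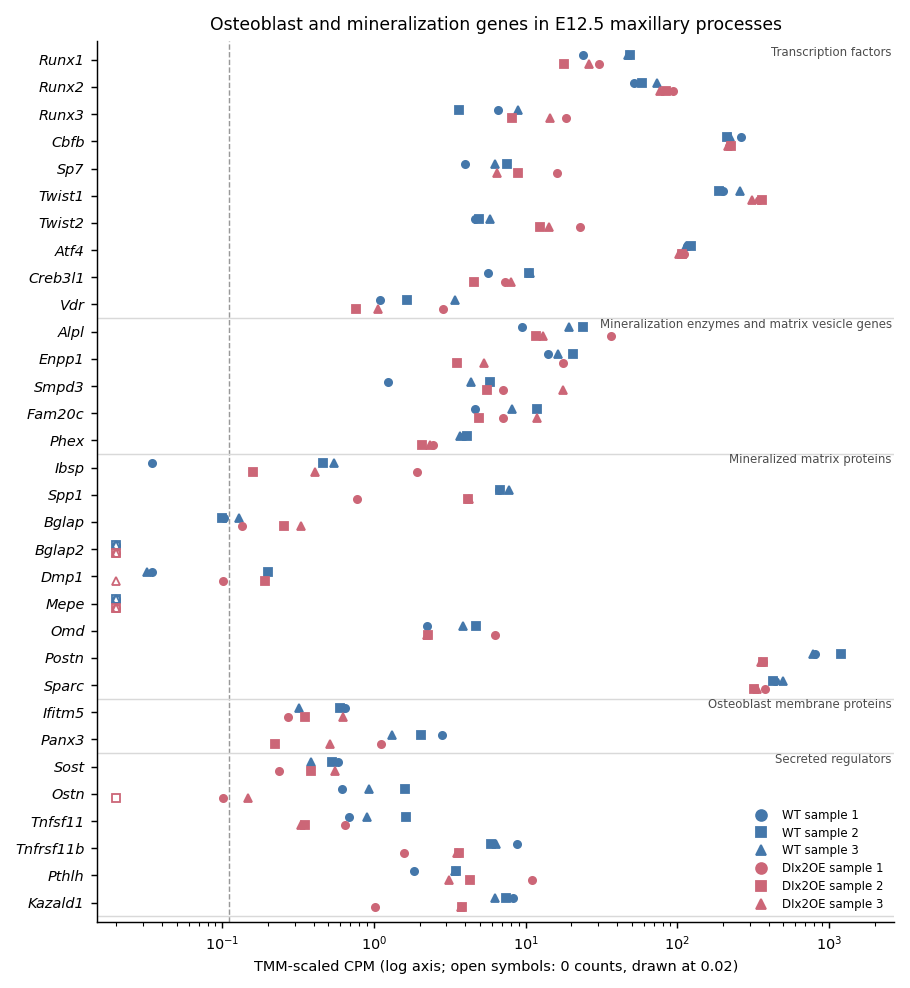
TMM-scaled CPM (log axis) of the 32 members in each of the 6 samples, grouped by role, with WT in blue and Dlx2OE in red. The dashed line is the highest floor of 3 counts, 0.111 CPM, and Bglap2 and Mepe are drawn at the left edge because they had 0 counts throughout.

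Genotype effects were tested by edgeR's quasi-likelihood method over 17514 genes, 28 of them members, and each log2 fold change below is Dlx2OE over WT with its standard error (SE). Of these 28, 4 had an adjusted p under 0.05: Twist1 and Twist2 rose in Dlx2OE, and Postn and Ostn fell. Over all genes tested, 6.45% had an adjusted p under 0.05, 2.99% higher and 3.46% lower, so the 14.3% of members should be read against that share. At the study's threshold, which also asks for a log2 fold change above 1 or below -1, Twist2 was called upregulated and Postn and Ostn downregulated, where 1.5% and 1.62% of all genes were called. With the study's tool, DESeq2, 10 members had an adjusted p under 0.05, against 12.7% of the 19047 genes it tested: Twist1, Twist2 and Runx3 were higher, and Postn, Ostn, Sparc, Spp1, Panx3, Tnfrsf11b and Kazald1 were lower, where 5.54% of genes were higher and 7.21% lower. By the study's threshold DESeq2 called Twist2 and Runx3 up and Postn, Ostn, Spp1, Panx3, Tnfrsf11b and Kazald1 down, against 2.35% and 2.31% of genes. The median log2 fold change of the 28 members was -0.34, with 9 higher and 19 lower, and that of all genes tested was 0.0028, with 49.7% lower. The 2 genotypes did not overlap in 13 of the 28 members, 3 higher and 10 lower, where 34.1% of all genes did not overlap, 16.7% higher and 17.3% lower. Ostn was the only tested member that reached the filter's level in just 3 libraries, all WT, so it entered the test through the group in which it was high.

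**Figure D2:**
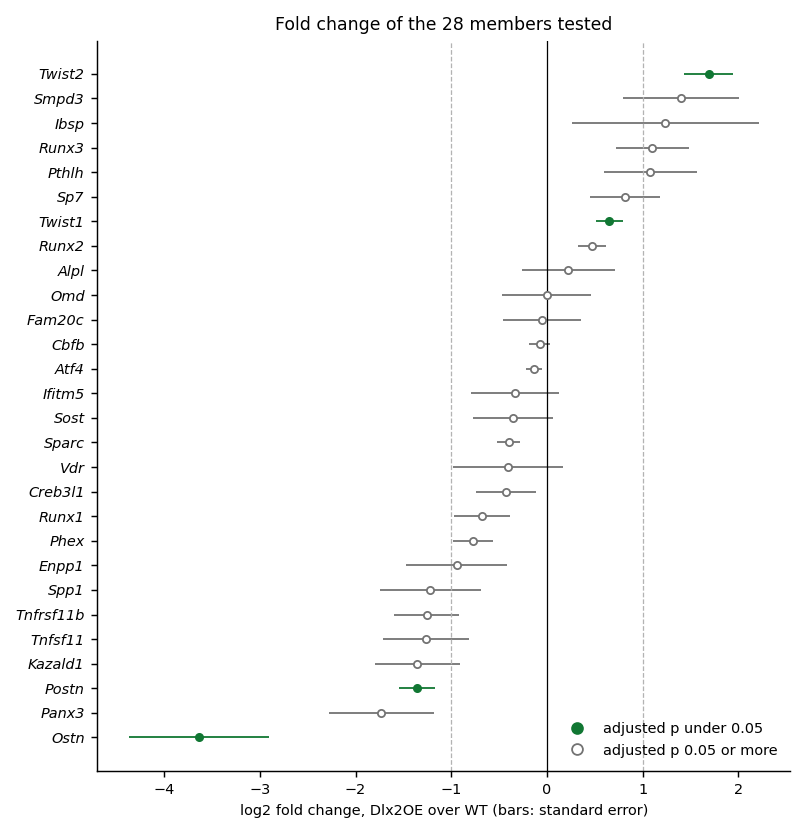
log2 fold change (Dlx2OE over WT) of the 28 members tested, with standard errors from edgeR's quasi-likelihood fit and dashed lines at 1 and -1. Twist2, at 1.69, and Ostn, at -3.64, are the ends of the range, and filled points mark the 4 members with an adjusted p under 0.05.

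Twist1 and Twist2 encode closely related basic helix-loop-helix factors of the cranial mesenchyme, and both rose in Dlx2OE. Twist1 (chromosome 12 of GRCm38, 33957671 to 33959829, forward strand) had 201, 189 and 260 CPM in WT samples 1 to 3. In Dlx2OE samples 1 to 3 it had 347, 361 and 313 CPM. All 3 Dlx2OE samples lay above all WT samples, at 340 ± 25.0 against 217 ± 37.9 CPM (SD, n = 3 each). This is a 1.57-fold rise (log2 fold change 0.65, SE 0.143, adjusted p = 0.0402, edgeR). The adjusted p of Twist1 was lost without any single sample except WT sample 3, with values from 0.0134 to 0.156 over the 6 fits, while the log2 fold change stayed between 0.55 and 0.79.

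Twist2 (chromosome 1, 91801461 to 91848028, forward strand) had the largest log2 fold change above 0 among the tested members. It had 4.65, 4.94 and 5.80 CPM in WT samples 1 to 3 and 23.0, 12.5 and 14.2 CPM in Dlx2OE samples 1 to 3. The groups did not overlap, and the spread was wider in Dlx2OE, with sample 1 the highest. Its mean rose from 5.13 ± 0.602 to 16.6 ± 5.63 CPM (SD, n = 3 each), which is 1.69 on the log2 scale (SE 0.256, adjusted p = 0.0152, edgeR). Relative to Twist1 in the same library, Twist2 was 2.23 to 2.62% in WT and 3.46 to 6.62% in Dlx2OE. An antisense gene, Gm29100, overlaps 46.5% of the exon sequence of Twist2, and the library kit does not mark strand. Where strand is ignored, union mode counts reads of the overlap for neither gene, and Gm29100 had 1.54 to 2.37 CPM in WT and 4.01 to 4.73 CPM in Dlx2OE from its own part. The adjusted p of Twist2 was 0.0657 without WT sample 1 and 0.0853 without WT sample 2.

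The promoters of Twist1, Twist2 and Postn are shown for 3 of the 4 members that passed the test (that of Ostn is not shown here), and that of Bglap because it is the textbook target of Runx2 in bone. Each run is the 250 bases before the RefSeq start on the strand of the gene (GRCm38.p6), at chr1:91801211-91801460 for Twist2, chr12:33957421-33957670 for Twist1, chr3:54360857-54361106 for Postn and chr3:88384467-88384716 for Bglap. Capitals mark matches on either strand to TGTGGT, the core bound by Runx factors, to TAATTA, a homeodomain core of the kind bound by Dlx proteins, or to the TATA box TATAAA, which was added after the values were seen.
Twist2: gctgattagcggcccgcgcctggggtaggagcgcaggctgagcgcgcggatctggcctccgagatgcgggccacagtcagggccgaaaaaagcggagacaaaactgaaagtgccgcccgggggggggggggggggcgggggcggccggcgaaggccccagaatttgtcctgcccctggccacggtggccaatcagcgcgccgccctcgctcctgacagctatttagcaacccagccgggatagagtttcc
Twist1: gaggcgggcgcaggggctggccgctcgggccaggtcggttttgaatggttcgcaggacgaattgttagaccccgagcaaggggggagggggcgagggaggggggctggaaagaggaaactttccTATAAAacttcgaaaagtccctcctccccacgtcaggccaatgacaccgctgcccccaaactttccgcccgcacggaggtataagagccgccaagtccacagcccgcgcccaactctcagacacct
Postn: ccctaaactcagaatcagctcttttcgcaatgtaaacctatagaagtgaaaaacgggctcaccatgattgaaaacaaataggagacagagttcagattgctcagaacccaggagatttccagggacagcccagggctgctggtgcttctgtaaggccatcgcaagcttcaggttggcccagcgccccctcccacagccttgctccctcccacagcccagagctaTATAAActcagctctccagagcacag
Bglap: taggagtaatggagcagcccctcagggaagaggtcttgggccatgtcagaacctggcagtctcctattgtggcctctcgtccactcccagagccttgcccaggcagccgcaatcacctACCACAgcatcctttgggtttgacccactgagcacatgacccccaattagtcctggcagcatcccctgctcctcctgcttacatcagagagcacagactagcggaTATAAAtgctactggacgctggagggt
These letters are a description and not binding sites. The Bglap window held TGTGGT on its reverse strand, 132 bases before the start, and TATAAA at 27 bases before it. Postn had TATAAA 26 bases before the start, Twist1 had it at 126 bases, and Twist2 had no match to any of the 3. Windows were found for 25 of the 32 members. Of these 25 genes, 7 had TGTGGT, 2 had TAATTA and 8 had TATAAA, in 21.9%, 6.25% and 25% of their 32 windows. In all 32851 windows of the same length the shares were 14.0%, 4.84% and 12.4%. Spp1 and Mepe were the members with TAATTA.

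**Figure D3:**
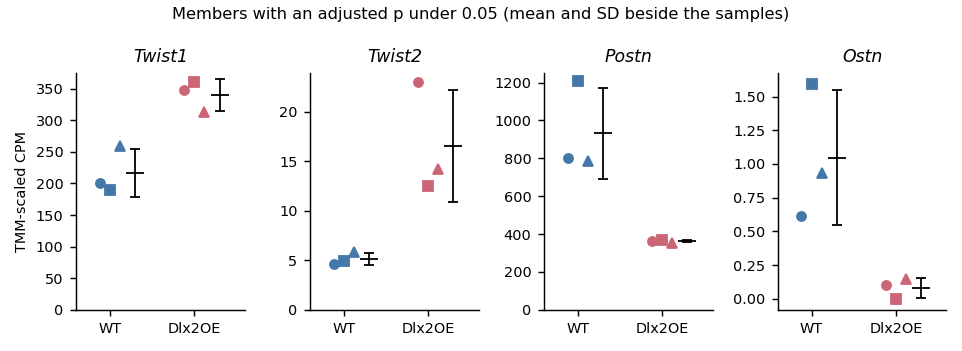
TMM-scaled CPM (linear axes) of Twist1, Twist2, Postn and Ostn in the 3 WT and 3 Dlx2OE samples, with the mean and SD beside the points. The genotypes do not overlap in any of the 4 genes, and the Dlx2OE samples of Postn sit between 354 and 369 CPM.

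The 3 Runx genes and their partner Cbfb did not pass the test. Runx2, the factor that commits cells to the osteoblast lineage (chromosome 17, 44495987 to 44814797), had 51.8, 58.2 and 73.5 CPM in WT and 93.0, 83.8 and 77.2 CPM in Dlx2OE. The Dlx2OE samples were all above the WT samples, although Dlx2OE sample 3 and WT sample 3 lay close together. The log2 fold change was 0.47 (SE 0.143, adjusted p = 0.083, edgeR), and without WT sample 3 the adjusted p was 0.0268. Runx3, which has roles in sensory neurons and cartilage, had 6.59, 3.65 and 8.85 CPM in WT and 18.3, 8.09 and 14.5 CPM in Dlx2OE. Its groups overlapped, with a log2 fold change of 1.10 (SE 0.382, adjusted p = 0.109, edgeR). DESeq2 gave Runx3 an adjusted p of 0.0163.

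Runx1, best known for blood formation and also active in epithelium and early skeletal cells, pointed the other way. It had 23.8, 48.8 and 47.1 CPM in WT and 30.5, 17.96 and 26.3 CPM in Dlx2OE, with WT sample 1 within the range of Dlx2OE (log2 fold change -0.68, SE 0.292, adjusted p = 0.166, edgeR). Cbfb, the partner of all 3 Runx factors, had 212 to 262 CPM in WT and 217 to 225 CPM in Dlx2OE. Its log2 fold change of -0.08 had a standard error of 0.111 (adjusted p = 0.67, edgeR).

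Sp7, the zinc finger factor that follows Runx2, was low but present in every library. The WT libraries held 117, 228 and 197 read pairs of Sp7 and the Dlx2OE libraries 474, 281 and 176. On the CPM scale Dlx2OE sample 1 was the highest and Dlx2OE sample 3 lay within the WT range, and the log2 fold change of 0.81 (SE 0.367) had an adjusted p of 0.182 in edgeR's test. Without Dlx2OE sample 1 it was 0.37. As a share of Runx2 in the same library, Sp7 was 7.71 to 13.0% in WT and 8.42 to 17.2% in Dlx2OE, which overlapped.

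The other transcription factors did not pass the test. Atf4, a stress-responsive factor needed in mature osteoblasts, had 114 to 123 CPM in WT and 103 to 110 CPM in Dlx2OE. The groups of Atf4 were close and did not overlap, but its log2 fold change of -0.14 (SE 0.0873, adjusted p = 0.327, edgeR) turned to 0.0325 once gene length and GC content were corrected for. Creb3l1, an endoplasmic reticulum factor that drives type I collagen in osteoblasts, had 5.64 to 10.6 CPM in WT and 4.55 to 8.05 CPM in Dlx2OE. Vdr, the vitamin D receptor, had 1.09 to 3.43 CPM in WT and 0.764 to 2.84 CPM in Dlx2OE. Both overlapped, with log2 fold changes of -0.43 and -0.41 and standard errors of 0.31 and 0.578.

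Of the 5 genes for mineralization enzymes and matrix vesicles, none had an adjusted p under 0.05 with edgeR. Phex and Smpd3 were under an unadjusted p of 0.05, as were 15 of the 28 members, against 29.5% of all genes tested, and DESeq2 gave none of the 5. Phex, the endopeptidase of phosphate balance on the X chromosome, was the most even of them. It had 3.90, 4.11 and 3.69 CPM in WT and 2.46, 2.07 and 2.33 CPM in Dlx2OE. Every Dlx2OE sample was lower. WT sample 2, with little Xist, had 4.11 CPM, and the part of embryo sex in the level of Phex was not tested. The log2 fold change of Phex was -0.77 (SE 0.209, adjusted p = 0.0632, edgeR).

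Alpl and Enpp1 act in opposite directions on pyrophosphate, the inhibitor of mineralization: alkaline phosphatase, from Alpl, breaks it down, and Enpp1 makes it. Alpl had 9.46, 23.9 and 19.2 CPM in WT and 36.6, 11.7 and 13.0 CPM in Dlx2OE. Enpp1 had 14.1, 20.5 and 16.4 CPM in WT and 17.7, 3.53 and 5.28 CPM in Dlx2OE. In both genes Dlx2OE sample 1 was the highest of its genotype, above the WT range for Alpl and within it for Enpp1. Dlx2OE samples 2 and 3 lay within the WT range for Alpl and below it for Enpp1. The log2 fold changes were 0.22 for Alpl (SE 0.483, adjusted p = 0.78, edgeR) and -0.95 for Enpp1 (SE 0.532, adjusted p = 0.269, edgeR). Without Dlx2OE sample 1, Alpl was at -0.51 and Enpp1 at -1.96, and the adjusted p of Enpp1 was 0.00737. The 10 epithelial markers had a summed level of 1767 CPM in Dlx2OE sample 1 and 595 and 575 CPM in samples 2 and 3, and 766 to 1310 CPM in WT. The sum in Dlx2OE sample 1 was largely Krt5 and Krt14, at 538 and 489.6 CPM. Only these 2, Trp63 and Esrp1 were highest in that sample, and the other 6 markers, Epcam and Cdh1 among them, were highest in WT sample 2. Krt8 and Krt18 fell, none of the 10 rose and none was at or under 3 counts in all libraries. Their part in these levels was not tested.

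Smpd3, a neutral sphingomyelinase of matrix vesicles that neurons also express, had 1.23, 5.84 and 4.39 CPM in WT and 7.09, 5.54 and 17.7 CPM in Dlx2OE. Dlx2OE sample 3 was far above the other libraries, and the groups overlapped (log2 fold change 1.40, SE 0.602, adjusted p = 0.166, edgeR). Without Dlx2OE sample 3 the log2 fold change was 0.72. The 10 neuronal markers summed to 67.2, 313 and 172 CPM in WT and 186, 499 and 1048 CPM in Dlx2OE, where sample 3 was also the highest. None of the 10 had an adjusted p under 0.05, and their part in the levels of Smpd3 and Runx3 was not tested. Fam20c, the kinase that phosphorylates secreted matrix proteins, had 4.61 to 11.95 CPM in WT and 4.94 to 11.9 CPM in Dlx2OE (log2 fold change -0.05, SE 0.408).

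Among the 9 genes of mineralized matrix proteins, 5 could be tested and 1, Postn, had an adjusted p under 0.05. Postn encodes periostin, an adhesive matrix protein of the periosteum and of embryonic mesenchyme (chromosome 3, 54361109 to 54391037). It had 803, 1206 and 785 CPM in WT and 365, 369 and 354 CPM in Dlx2OE. The Dlx2OE samples were nearly equal, each under the lowest WT sample, and WT sample 2 was the highest. The mean fell from 931 ± 238 to 363 ± 7.52 CPM (SD, n = 3 each), which is -1.36 on the log2 scale (SE 0.185, adjusted p = 0.0116, edgeR). This is 2.57-fold lower. Without Dlx2OE sample 2 the adjusted p of Postn was 0.0513, and in the other 5 fits that left out a sample it stayed under 0.05.

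Sparc, or osteonectin, binds collagen and calcium and is made in most embryonic mesenchyme. It had 442, 426 and 499 CPM in WT and 381, 320 and 336 CPM in Dlx2OE, without overlap. The difference of -0.40 on the log2 scale (SE 0.122) missed the threshold in edgeR (adjusted p = 0.0831), and DESeq2 gave an adjusted p of 0.0333. Omd, a keratan sulfate proteoglycan of bone, overlapped fully, with 2.22 to 4.71 CPM in WT and 2.25 to 6.28 CPM in Dlx2OE.

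Spp1, Ibsp, Dmp1 and Mepe, genes of acidic phosphoproteins of bone matrix, lie side by side on chromosome 5 between 104202613 and 104441050. Spp1, which encodes osteopontin and is also made by macrophages, had 6.70, 6.74 and 7.79 CPM in WT and 0.776, 4.14 and 4.21 CPM in Dlx2OE. All Dlx2OE samples were below the WT samples, and sample 1 was far below the other two (log2 fold change -1.22, SE 0.523, adjusted p = 0.166, edgeR). DESeq2 gave Spp1 an adjusted p of 0.0423, and without Dlx2OE sample 1 the log2 fold change was -0.77. Another gene, Gm42793, overlaps 18.8% of the Spp1 exons but had at most 2 counts. Of the 9 macrophage markers, 3 fell, namely C1qa, C1qb and C1qc, and none rose. Their summed level was 75.7 to 87.2 CPM in WT and 54.5 to 54.9 CPM in Dlx2OE, no marker was at or under 3 counts in all libraries, and Dlx2OE sample 1 did not stand apart. In whole tissue, fewer cells of a type and less RNA per cell cannot be told apart. The part of macrophages in the level of Spp1 was not tested.

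Ibsp, or bone sialoprotein, was counted 1, 14 and 17 times in WT and 57, 5 and 11 times in Dlx2OE. Its log2 fold change of 1.23 (SE 0.979, adjusted p = 0.422, edgeR) rested on Dlx2OE sample 1, without which it was -0.34. Dmp1 reached 6 counts in a sample of each genotype and 3 or fewer in the rest, and a difference was not detectable at this depth. The WT libraries held 3, 3 and 4 read pairs of Bglap and the Dlx2OE libraries 4, 8 and 9, at or near the floor, and Bglap2 was at 0 in all. Bglap and Bglap2 are near-identical neighbours on chromosome 3, and reads shared between them may not have been counted, so both values are uncertain.

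The 2 osteoblast membrane proteins were low. Panx3, a pannexin channel of cartilage and bone (chromosome 9, 37659902 to 37669235), had 2.80, 2.06 and 1.31 CPM in WT and 1.11, 0.223 and 0.517 CPM in Dlx2OE. The groups did not overlap, although WT sample 3 and Dlx2OE sample 1 were close (log2 fold change -1.73, SE 0.549, adjusted p = 0.0892, edgeR). DESeq2 gave Panx3 an adjusted p of 0.0264, and edgeR without Dlx2OE sample 1 gave 0.0241. Of the 12 cartilage markers, 10 were tested and Col9a2 fell, and their sum was 680 to 906 CPM in WT and 323 to 704 CPM in Dlx2OE, lowest in sample 1. None of them was at or under 3 counts in all libraries, and their part in the level of Panx3 was not tested. Ifitm5, a small protein of mineralizing osteoblasts, had 10 to 19 counts in WT and 8 to 17 in Dlx2OE.

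**Figure D4:**
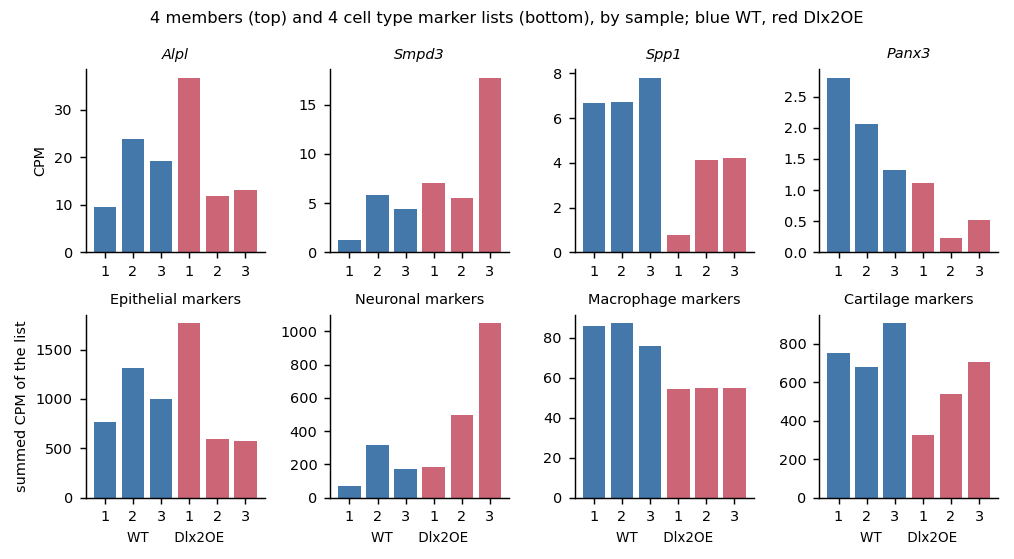
CPM of Alpl, Smpd3, Spp1 and Panx3 (top) and the summed CPM of the epithelial, neuronal, macrophage and cartilage marker lists (bottom) in each sample, WT in blue and Dlx2OE in red, axes from 0. Alpl is highest in Dlx2OE sample 1, where the epithelial sum is 1767 CPM, although 6 of the 10 epithelial markers are highest in WT sample 2, and Smpd3 in Dlx2OE sample 3, where the neuronal sum is 1048 CPM.

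Of the 6 secreted regulators, Ostn fell and the other 5 did not pass edgeR's test. Ostn encodes osteocrin, a small secreted protein of osteoblasts and muscle (chromosome 16, 27307489 to 27351212). The WT libraries held 18, 48 and 29 read pairs of Ostn, and the Dlx2OE libraries 3, 0 and 4. Every WT library was above every Dlx2OE library, which lay at or near the floor of 3 counts. The summed counts were 95 in WT and 7 in Dlx2OE, a ratio of 13.2 in scaled level (95% exact interval 6.16 to 33.7, counting error only). The fitted log2 fold change was -3.64 (SE 0.732, adjusted p = 0.0332, edgeR). Ostn passed the filter only through the WT libraries, in which it was high, so this adjusted p is no independent support. The adjusted p of Ostn was 0.0718 without WT sample 1, 0.139 without WT sample 2, 0.0702 without Dlx2OE sample 2 and 0.0625 without Dlx2OE sample 3. Skeletal muscle markers, of which none of 8 passed the test, summed to 188 to 357 CPM in WT and 79.8 to 238 CPM in Dlx2OE, and their part in the level of Ostn was not tested.

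Tnfsf11 encodes RANKL, the signal that makes osteoclasts from blood-borne precursors, and Tnfrsf11b encodes osteoprotegerin, the decoy receptor that blocks it. Tnfrsf11b had 8.71, 5.94 and 6.38 CPM in WT and 1.59, 3.66 and 3.54 CPM in Dlx2OE. Tnfsf11 had 0.683, 1.63 and 0.898 CPM in WT and 0.641, 0.350 and 0.332 CPM in Dlx2OE. All Dlx2OE samples of both genes were below the WT samples, by a narrow gap for Tnfsf11. The log2 fold changes were -1.26 for Tnfrsf11b (SE 0.341, adjusted p = 0.0632, edgeR) and -1.27 for Tnfsf11 (SE 0.448, adjusted p = 0.113, edgeR). DESeq2 gave 0.00264 and 0.165. The level of Tnfsf11 as a share of Tnfrsf11b was 7.84, 27.4 and 14.1% in WT and 40.4, 9.57 and 9.38% in Dlx2OE, so the balance of the pair did not separate the genotypes.

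Kazald1, a secreted protein related to insulin-like growth factor binding proteins, had 8.20, 7.43 and 6.29 CPM in WT and 1.01, 3.79 and 3.77 CPM in Dlx2OE. The study had named Kazald1 from these libraries, among lowered genes of extracellular matrix terms, so its level here is not independent of that result. The Dlx2OE samples were all lower and sample 1 was the lowest. Without that sample the log2 fold change was -0.96 and the adjusted p 0.0344 in edgeR's test, against -1.35 and 0.0966 with all samples. Pthlh, a peptide of epithelium and perichondrium that holds back cartilage maturation, had 1.85, 3.45 and 3.40 CPM in WT and 10.97, 4.27 and 3.14 CPM in Dlx2OE. Dlx2OE sample 1 was again the one apart, and without it the log2 fold change of Pthlh moved from 1.08 (SE 0.485, adjusted p = 0.182, edgeR) to 0.35. Sost, the Wnt inhibitor of mature bone cells, had 12 to 17 counts in WT and 7 to 15 in Dlx2OE.

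Dlx2OE sample 1 was the sample farthest from the other two of its genotype in 16 of the 28 members, or 57.1%, on log2 CPM. Over all genes tested it was the farthest in 41.1%. It was the highest of the 6 libraries for Alpl, Sp7, Pthlh, Ibsp, Omd, Runx2, Runx3 and Twist2, and the lowest for Spp1, Kazald1, Tnfrsf11b, Ifitm5 and Sost. Of the WT samples, sample 1 was the farthest in 11 members, sample 3 in 10 and sample 2 in 7. The median SD of log2 CPM was 0.48 in WT and 0.62 in Dlx2OE over the members, and 0.20 and 0.18 over all genes tested. The members also had fewer counts, with a median of 217 per library against 524. Leaving out Dlx2OE sample 1 raised the number of members with an adjusted p under 0.05 from 4 to 7, Enpp1, Kazald1, Panx3 and Tnfrsf11b being added and Twist1 lost, and leaving out WT sample 1, WT sample 2 or Dlx2OE sample 2 lowered it to 1. It was 2 without Dlx2OE sample 3 and 5 without WT sample 3. The share of all genes moved as well, to 10.7% without Dlx2OE sample 1 and to 0.991%, 0.438%, 1.18%, 1.76% and 11.5% without WT sample 1, WT sample 2, Dlx2OE sample 2, Dlx2OE sample 3 and WT sample 3.

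**Figure D5:**
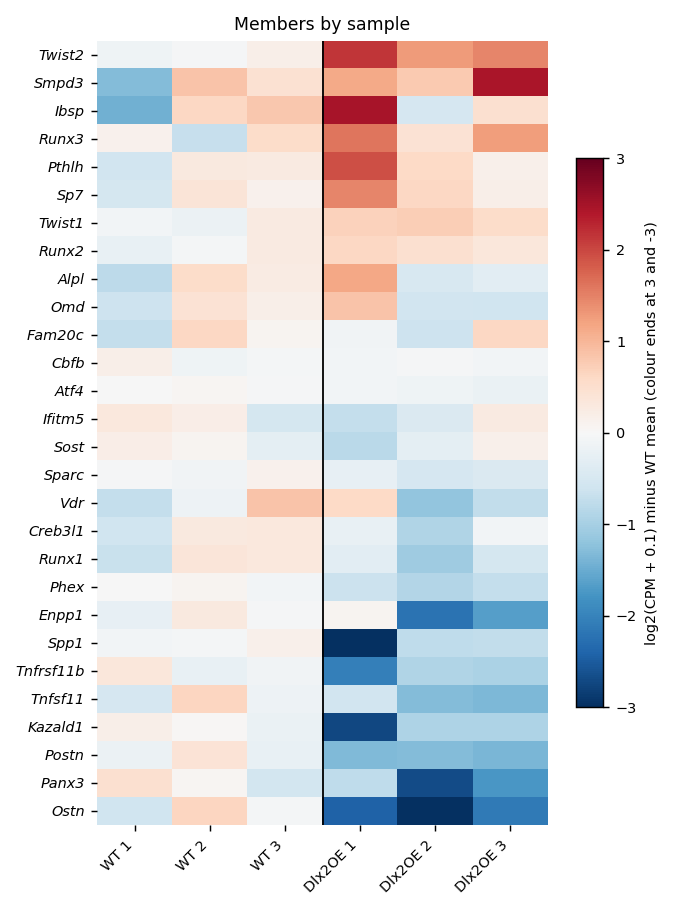
log2(CPM + 0.1) of the 28 members tested in each sample, minus the mean of the WT samples, ordered by fold change, with the colour scale ending at 3 and -3. Twist2, Twist1 and Runx2 are above the WT mean and Postn and Ostn below it in all 3 Dlx2OE samples, while Alpl and Omd are above it in Dlx2OE sample 1 and below it in samples 2 and 3.

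Genes around this program were followed in lists that were also chosen with earlier results known, so their counts are no independent evidence. The study had picked out Lef1 and Msx2, in the first list, and Mmp9, in the osteoclast list, from these libraries. Among 24 tested regulators of Runx2 and of osteoblast commitment, 5 rose and 0 fell, where 2.99% of all genes rose and 3.46% fell, and the median log2 fold change was 0.23. Lef1, a Wnt effector that can restrain Runx2, rose from 14.0 ± 0.721 to 131 ± 28.2 CPM (SD, n = 3 each, adjusted p = 0.000493, edgeR). Trps1, a zinc finger repressor of skeletal cells, rose from 87.1 ± 15.1 to 319 ± 100.3 CPM (adjusted p = 0.0101, edgeR). Msx2, Alx4 and Hdac4 also rose. Dlx2OE sample 1 was the highest library for 16 of the 25 regulators, with all 5 that rose among them. Without overlap 7 were higher and 1 lower, where 16.7% and 17.3% of all genes were. The lower regulator was Foxc1, at 36.9 to 82.0 CPM in WT and 17.6 to 34.7 CPM in Dlx2OE (adjusted p = 0.0742, edgeR). Of 20 genes of bone collagen and its processing, 6 fell and 1 rose, against the same 3.46% and 2.99% of all genes. The 6 were Mgp, Plod2, Ogn, Fkbp10, Ppib and Sparcl1. Mgp, an inhibitor of calcification, fell from 15.1 ± 3.84 to 2.68 ± 0.922 CPM (adjusted p = 0.00929, edgeR), and Plod2, which hydroxylates collagen, fell from 142 ± 12.02 to 86.9 ± 6.02 CPM (adjusted p = 0.014, edgeR). The gene that rose was Tnn, at 4.87 ± 1.48 CPM in WT and 28.8 ± 23.0 CPM in Dlx2OE (adjusted p = 0.0389, edgeR). Of 11 tested genes of phosphate and mineral handling, Pth1r, the receptor for Pthlh, rose from 74.7 ± 8.23 to 123 ± 22.8 CPM (adjusted p = 0.0356, edgeR). Of 10 tested osteoclast genes, Ctsk fell from 20.4 ± 2.81 to 13.3 ± 0.781 CPM (adjusted p = 0.0479, edgeR), and Dcstamp and Atp6v0d2, which mark mature osteoclasts, were at or under 3 counts in every library. Other osteoclast genes were present, with 51 to 165 counts of Acp5, 39 to 134 of Mmp9 and 6 to 22 of Calcr. Of the remaining marker lists, endothelial genes had 1 of 7 lower, Emcn, with sums of 291 to 438 CPM in WT and 210 to 333 CPM in Dlx2OE. Erythroid genes had 3 of 9 lower, Hba-a1, Hba-a2 and Alas2, with sums of 3274 to 4350 CPM in WT and 1960 to 2537 CPM in Dlx2OE.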

How the data were processed

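The authors filtered paired reads for adaptors, contamination and low quality, assessed them with FastQC, mapped them to mm10 with STAR 2.7.3a and counted read pairs per gene with HTSeq 0.12.4 in union mode. The annotation release and strand setting are not given in the sources used here, and the library kit does not mark strand. The deposited values are raw counts of read pairs, 1 library a file. Lines that name no gene were left out; read pairs outside annotated genes were 5.34 to 15.4%. Gene names, lengths and GC content came from GENCODE, which matched 53706 of 53801 identifiers, and promoters from RefSeq (GRCm38.p6).

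Counts were fitted in edgeR 4.0.16 (R 4.3.3) with genotype alone, TMM scaling and filterByExpr (minimum count 10), and p-values were adjusted by Benjamini-Hochberg over all 17514 genes tested. DESeq2 1.42.0, other scalings and filters, a correction for length and GC content (loess span 0.5), a replicate block and fits without each sample were alternatives. The code was tested on simulated data. Two-sided exact permutation of 3 against 3 samples cannot give a p below 0.1, so none is quoted. Members with an adjusted or unadjusted p under 0.05, or among the 6 highest per kilobase in WT, were described in full. Of other genes, Dlx2 and up to 2 per list and direction with the smallest p were named with values; further names beside a count were chosen after their values were seen. The members and lists were chosen with earlier results of these data known. Intervals and floors cover counting error only.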

Additional observations from a re-analysis of the deposited data

Results flagged for a closer look

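Read pairs outside annotated genes, which enter no comparison, exceeded every WT library in all 3 Dlx2OE libraries, at 6.03% in sample 1, 8.21% in sample 2 and 15.4% in sample 3, against 5.34 to 5.79% in WT. Without Dlx2OE sample 3, Postn and Twist2 kept an adjusted p under 0.05 and Twist1 and Ostn were at 0.0809 and 0.0625.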

How the results depend on the processing

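Of 414 values of single members under the alternatives, 358 kept their direction and their side of the threshold, 16 passed it newly, 16 no longer passed and 24 changed sign; where no cause follows from the alternative itself, the cause was not tested. DESeq2 gave 7 members lower and called 6 down and 2 up. Without a filter on low counts 5 were lower, 5 called down and 2 up, where 3.51%, 1.48% and 1.51% of all genes were. With at least 10 counts in every sample 1 was lower and 1 called down, where 4.24% and 1.75% of all genes were. Ostn could not be tested with that filter, and the median log2 fold change was -0.10. Replicate numbers are shared by the genotypes. Deviations of same-numbered samples correlated at -0.07, -0.21 and 0.07, and WT sample 1 correlated best with Dlx2OE sample 2, at 0.34. With 3 samples a group, these values cannot show whether samples were collected or processed in pairs. With the replicate block 1 member, Postn, was lower and called down, where 3.16% and 1.12% of all genes were. The block had 2 members called up, Twist2 and Runx3, where 1.15% of all genes were. With the block and the length and GC correction the counts were 1 lower, 1 called down and 1 higher. Of all genes, 0.554% were then lower, 0.32% called down and 0.525% higher. Leaving out 1 sample gave 0 to 3 members higher, 0 to 6 lower, 0 to 1 called up and 0 to 4 called down, with a median of -0.50 to -0.18. Over the same fits 0.216 to 5.36% of all genes were higher and 0.222 to 7.14% lower. Those called up were 0.216 to 3.53% and those called down 0.194 to 2.92%.

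Sign changes were confined, among the settings run, to members that did not pass the test. With the length and GC correction, and then with the block as well, log2 fold changes were 0.0325 and 0.0323 for Atf4, 0.0548 and 0.0578 for Cbfb, 0.18 and 0.14 for Ifitm5 and 0.17 and 0.0253 for Omd. Omd was also at 0.0025 with DESeq2, 0.0057 with RLE factors and 0.049 with library size alone, and Fam20c at 0.0162 with the last. Leaving out 1 sample gave -0.51 to 0.50 for Alpl, -0.14 to 0.0136 for Cbfb, -0.45 to 0.31 for Fam20c, -0.34 to 1.73 for Ibsp, -0.68 to 0.24 for Omd and -1.18 to 0.17 for Vdr. The length and GC correction moved the members' split from 9 higher and 19 lower to 13 and 15, with the median of all genes at 0.02. The counts of Bglap, Bglap2, Dmp1 and Mepe were too low for a difference to be detectable. Reads shared between Bglap and Bglap2 may also not have been counted.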
